A study of Rattus norvegicus with 71 samples.

Results

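Expression of 10 genes of the unfolded protein response, Dnajc3, Hspa5, Hsp90b1, Pdia4, Herpud1, Atf4, Atf6, Ern1, Xbp1 and Ddit3, was examined among the 17494 genes of a count table of newborn rat brain. The genes were taken by symbol. Dnajc3 was included because its level differed between autoantibody-exposed and control animals in one of 2 series of samples and not in the other, so its values by exposure are given as a description with no test. The other 9 were taken for their known function in the same pathway, with earlier results of these data known. All 10 genes had counts in each of the 71 samples.

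Each sample was RNA from a coronal brain slice, 150 um thick, of 1 Sprague-Dawley rat at postnatal day 2, holding the hippocampal formation with cortical and subcortical tissue beside it. All animals were wild type, and exposure was set by the dam: control dams received Freund's adjuvant with saline, and the others received adjuvant with peptides of the antigens that name their group, so that exposed and control offspring both had dams given adjuvant. The 27 litters gave 35 males and 36 females, and littermates shared a dam. The sample titles fall into 2 series, called here the IgG/RNA/FcRn series and the MAR_C3 series after the names of their dams or titles, with the make-up of the 2 batches that the study processed and sequenced separately.

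The IgG/RNA/FcRn series held 12 control animals of 3 litters and 16 LDHA/B+CRMP1+STIP1 animals of 4 litters. The MAR_C3 series held 12 control animals of 4 litters, 9 LDHA/B+CRMP1+STIP1 animals of 5 litters, 8 CRMP1+CRMP2 animals of 4 litters, 6 CRMP1+GDA animals of 3 litters and 8 STIP1+NSE animals of 4 litters. CRMP1+CRMP2, CRMP1+GDA and STIP1+NSE therefore had controls of their own series and no animals in the other. Among the MAR_C3 controls, litter 9_10 was all female and litter 9_25 all male.

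The unfolded protein response adjusts the folding capacity of the endoplasmic reticulum. The sensors IRE1 (Ern1), ATF6 and PERK sit in its membrane and are held inactive by the chaperone BiP (Hspa5). When unfolded proteins draw BiP away, IRE1 splices the mRNA of Xbp1, ATF6 is cut to release a transcription factor, and PERK phosphorylates eIF2alpha, which favors translation of Atf4. XBP1 and ATF6 raise genes of chaperones, disulfide isomerases and degradation of misfolded proteins, while ATF4 raises genes of amino acid supply and, under lasting stress, Ddit3 (CHOP). Splicing of Xbp1, cleavage of ATF6 and phosphorylation of eIF2alpha are not seen in counts per gene, which give the amount of mRNA only.

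Libraries held from 24880182 to 36234952 counts, with a median of 28439195. The summed level of 7 neuronal marker genes was between 3227 and 6105 CPM (counts scaled to library size) in every library. The series differed in tissue content: the summed level of 7 choroid plexus markers was 3.40 to 576 CPM in the IgG/RNA/FcRn series and 137 to 3332 CPM in MAR_C3, and that of 4 thalamus markers was 23.9 to 59.2 CPM against 50.7 to 728 CPM. In 13 libraries, all of MAR_C3, the pineal gene Tph1 or the homeobox gene Hoxb7 exceeded 1 CPM. The summed level of 5 Hox genes reached 22.7 CPM in the IgG/RNA/FcRn controls (median 0), and these libraries stayed in. In bulk tissue, fewer cells of a type and less RNA per cell cannot be told apart. The part of these differences in the results on the 10 genes was not tested, except where values without the 13 libraries are given.

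The transcription factors of the pathway act at gene promoters, and the 5 promoters of these genes that held a stress motif are shown. Windows of 300 bases around the gene start (250 before it) came from RefSeq in build GRCr8, which is not the rn7 build of the counts, and covered 8 of the 10 genes, all but Ern1 and Atf6. Both strands were searched for the endoplasmic reticulum stress element (ERSE: CCAAT, then 9 bases of any kind, then CCACG), for ERSE-II (ATTGG, 1 base, CCACG), for the XBP1-type element TGACGTGG and for the ATF4-type element TGATGCAA. The last 200 bases before the start follow, 5′ to 3′ on the strand of the gene, with each match in capitals.
Dnajc3: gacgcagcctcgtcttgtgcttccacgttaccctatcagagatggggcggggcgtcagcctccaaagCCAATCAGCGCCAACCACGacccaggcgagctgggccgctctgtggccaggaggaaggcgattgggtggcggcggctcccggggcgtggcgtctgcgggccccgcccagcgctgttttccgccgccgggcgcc
Hspa5: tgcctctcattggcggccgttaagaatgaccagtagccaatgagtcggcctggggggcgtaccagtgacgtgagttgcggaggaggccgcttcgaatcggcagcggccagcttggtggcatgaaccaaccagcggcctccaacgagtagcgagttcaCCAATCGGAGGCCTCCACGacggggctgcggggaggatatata
Hsp90b1: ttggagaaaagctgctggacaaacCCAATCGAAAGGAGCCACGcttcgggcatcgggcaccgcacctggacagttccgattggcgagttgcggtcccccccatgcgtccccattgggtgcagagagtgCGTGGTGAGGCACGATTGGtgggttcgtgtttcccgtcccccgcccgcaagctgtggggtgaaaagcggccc
Xbp1: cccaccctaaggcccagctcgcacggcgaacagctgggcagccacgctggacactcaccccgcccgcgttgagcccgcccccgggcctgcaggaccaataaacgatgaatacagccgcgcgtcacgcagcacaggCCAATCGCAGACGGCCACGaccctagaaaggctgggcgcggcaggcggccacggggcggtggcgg
Herpud1: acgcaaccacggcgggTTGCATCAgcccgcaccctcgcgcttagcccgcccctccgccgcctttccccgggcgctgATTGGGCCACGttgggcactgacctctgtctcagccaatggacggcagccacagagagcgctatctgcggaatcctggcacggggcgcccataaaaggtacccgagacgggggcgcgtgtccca

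These runs lie at chr15:102432467-102432666 (plus strand) for Dnajc3, chr3:38452816-38453015 (plus strand) for Hspa5, chr7:23012294-23012493 (minus strand) for Hsp90b1, chr14:84604423-84604622 (plus strand) for Xbp1 and chr19:10614708-10614907 (minus strand) for Herpud1. An ERSE began 133 bases before the start of Dnajc3, 43 before that of Hspa5 and 65 before that of Xbp1. Hsp90b1 held 2, at 176 bases on its own strand and at 72 bases on the opposite strand. ERSE was present in 4 of the 8 windows and in 22 (0.0657%) of the 33469 promoter windows in the RefSeq set. ERSE-II was present in Herpud1 at 124 bases and in 17 windows in all (0.0508%). Herpud1 also held the ATF4-type element, at 184 bases on the opposite strand, which occurred in 266 windows (0.795%). The XBP1-type element, in 199 windows (0.595%), had 0 matches among the 8. Atf4, Ddit3 and Pdia4 held none of the 4 motifs in these windows, although the short core CCACG was in all 8 (31.6% of all windows). A match describes the letters of the window and was not tested as a binding site.

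The chaperones and Atf4 had the highest levels of the 10 genes. Levels per exon length (RPKM, which is CPM per kilobase of the exon length in the table) were 145.9 ± 19.4 for Hspa5, 142.2 ± 15.8 for Hsp90b1 and 129.5 ± 18.9 for Atf4 (SD, n = 71 animals), at percentiles 94.83 to 95.65 of the expressed genes. Xbp1 followed at 73.0 ± 9.81 RPKM, Pdia4 at 29.6 ± 4.67 and Herpud1 at 20.9 ± 2.76. Dnajc3 stood near the middle of all expressed genes at 13.0 ± 2.00 RPKM, followed by Ddit3 at 11.2 ± 1.81, Atf6 at 8.32 ± 1.32 and Ern1 at 3.11 ± 0.76. Neighbors in this order differed by more than the larger of their SDs, except for Hspa5 and Hsp90b1, Hsp90b1 and Atf4, and Dnajc3 and Ddit3. Each gene varied little across animals: the highest sample was 1.74-fold (Hspa5 and Hsp90b1) to 2.17-fold (Ddit3) the lowest, and 3.14-fold for Ern1.

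**Figure D1:**
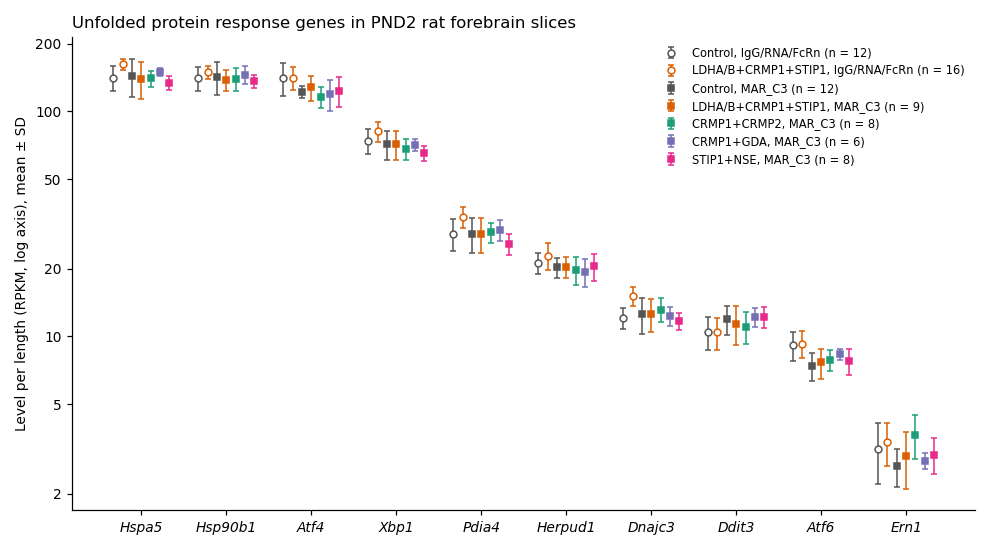
Level per exon length (RPKM, log axis) of each of the 10 genes in the 7 combinations of exposure and title series, as the mean with its SD over animals. Hspa5, Hsp90b1 and Atf4 lie above 100 RPKM, Ern1 lies lowest, and the bars of most groups of a gene overlap.

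Within each gene, the groups differed by less than the genes did. The ratio of the highest to the lowest group mean was 1.10 for Hsp90b1, 1.17 for Ddit3 and 1.38 for Ern1, with the other genes between these values. LDHA/B+CRMP1+STIP1 animals of the IgG/RNA/FcRn series had the highest mean of 8 of the 10 genes, the exceptions being Ern1 (highest in CRMP1+CRMP2) and Ddit3 (highest in CRMP1+GDA). Dnajc3 is among the 8 by choice. For Atf6, Atf4, Xbp1 and Herpud1 the controls of the same series came next. This order runs across the 2 series, whose controls differed in 41.5% of genes. When the 7 groups were put in order, neighbors lay within the larger SD of the pair for 7 of the 10 genes. For Hspa5, Pdia4 and Dnajc3 the step between the highest group and the next was larger, at 1.33, 1.19 and 1.22 SDs.

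Dnajc3 is a J-domain cochaperone in the lumen of the endoplasmic reticulum that passes unfolded proteins to BiP, and its protein also restrains kinases that phosphorylate eIF2alpha. The gene lies on chromosome 15, bases 96025729 to 96065114 (plus strand, rn7). In the IgG/RNA/FcRn series, the 12 controls ranged from 15.3 to 21.4 CPM with a median of 18.3, and the 16 LDHA/B+CRMP1+STIP1 animals from 19.6 to 27.6 CPM with a median of 22.4. The ranges of animals overlapped between 19.6 and 21.4 CPM. The means were 22.9 ± 2.30 in exposed (SD, n = 16) and 18.3 ± 1.98 CPM in control animals (SD, n = 12), a log2 difference of 0.33 (SE 0.06) or 1.25-fold. The 4 exposed litter means, 21.8 to 24.1 CPM, all lay above the 3 control litter means, 17.8 to 18.6 CPM, a separation that 352 genes (2.84%) met. These values chose Dnajc3, and nothing is read from them here. In this comparison 2 of 12415 genes (0.0161%) passed FDR < 0.1 in edgeR. In limma voom with a random litter effect 0 did, and 0 in edgeR on counts summed per litter, with 262 and 191 genes at an unadjusted p under 0.05.

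In the MAR_C3 series the same exposure gave no such separation of Dnajc3. The 12 controls ranged from 14.99 to 27.4 CPM with a median of 18.6, and the 9 LDHA/B+CRMP1+STIP1 animals from 14.2 to 23.8 CPM with a median of 19.3. The means were 18.96 ± 3.38 and 18.98 ± 3.20 CPM, with a log2 difference of 0.003 (SE 0.104). Litters spread more widely here than in the other series. Control litter means ran from 15.9 (9_15) to 24.2 CPM (9_5) and exposed litter means from 14.8 (9_14) to 23.4 CPM (9_19), so that each group spanned nearly the whole range of the other. The effect in MAR_C3 minus that in the IgG/RNA/FcRn series was −0.33 (SE 0.11) on the log2 scale. Dnajc3 was chosen for a difference in the IgG/RNA/FcRn series and none in MAR_C3. This value restates that choice, and nothing is read from it.

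In the other groups of MAR_C3, Dnajc3 stood at 19.96 ± 2.43 CPM in CRMP1+CRMP2 (SD, n = 8), 18.7 ± 1.78 in CRMP1+GDA (SD, n = 6) and 17.8 ± 1.51 in STIP1+NSE (SD, n = 8). Against the same 12 controls the log2 differences were 0.07 (SE 0.10), 0.01 (SE 0.11) and −0.09 (SE 0.09), each smaller than its SE. The 4 comparisons within MAR_C3 share these controls and are not independent of each other. Over all 47 exposed and 24 control animals, with 1 surrogate variable for technical variation, the log2 difference was 0.13 (SE 0.05). That fit holds the IgG/RNA/FcRn animals whose values chose Dnajc3, so its value is a description only.

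**Figure D2:**
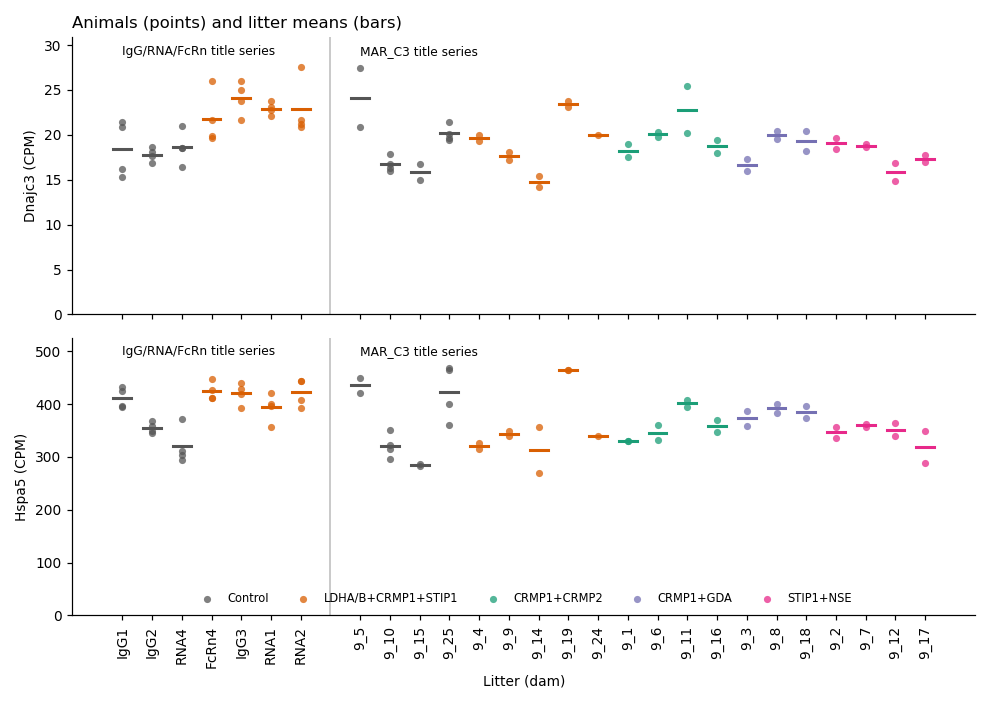
Level of Dnajc3 (top) and Hspa5 (bottom) in CPM for every animal, by litter, with bars at litter means and colors for exposure. Dnajc3 litter means of exposed animals of the IgG/RNA/FcRn series (21.8 to 24.1 CPM) lie above those of the controls (17.8 to 18.6 CPM), while in MAR_C3 litters of each group overlap.

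The lumenal chaperones and the isomerase that work beside Dnajc3 lay higher in the exposed animals of the IgG/RNA/FcRn series without passing the threshold. Hspa5 encodes BiP, the main Hsp70-type chaperone of the endoplasmic reticulum (chromosome 3, bases 18055507 to 18059969, plus strand). It ranged from 293 to 433 CPM in the controls, with a median of 363, and from 357 to 448 CPM in the exposed animals, with a median of 415. The log2 difference was 0.20 (SE 0.05), with p = 0.000518 and an adjusted p = 0.592 (edgeR). The lowest controls came from one litter, RNA4, with a mean of 320 CPM, while control litter IgG1, at 411.5 CPM, lay among the exposed litters (394 to 424 CPM).

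Pdia4, a protein disulfide isomerase (chromosome 4, bases 76803344 to 76822245, minus strand), ranged from 52.4 to 87.0 CPM in the controls (median 64.5) and from 64.8 to 92.2 CPM in the exposed animals (median 81.7). Its log2 difference was 0.25 (SE 0.07), with p = 0.00129 and an adjusted p = 0.705. Control litter IgG1 was again apart from the other controls, at 79.3 CPM against 57.6 and 61.9 CPM, and without it both Hspa5 (log2 difference 0.29) and Pdia4 (0.39) had an adjusted p = 0.0101. With it, neither passed, nor did either when any other litter was left out, with a random litter effect or with counts summed per litter. Over the fits that left out 1 litter, the Hspa5 difference ran from 0.12 to 0.29 and its adjusted p from 0.0101 to 0.999 (edgeR). Within groups of this series the litter accounted for 64.2% of the variance of Hspa5 and 80.5% of that of Pdia4. Choroid plexus markers also lay higher in the exposed animals, 6 of 7 of them, with a median log2 difference of 0.88, 0 called and 3 at an unadjusted p under 0.05. Their summed level was 3.40 to 576 CPM in exposed (median 42.3) and 4.04 to 112.3 CPM in control animals (median 13.4), and its part in these values was not tested.

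Hsp90b1, the Hsp90-type chaperone GRP94 (chromosome 7, bases 21110431 to 21124762, minus strand), stood at 419 ± 28.2 CPM in exposed (SD, n = 16) and 394 ± 48.9 CPM in control animals (SD, n = 12), a log2 difference of 0.09 (SE 0.05) with an adjusted p = 0.970 in edgeR. Herpud1, a membrane protein of the degradation machinery for misfolded proteins (chromosome 19, bases 10598415 to 10608762, minus strand), stood at 42.2 ± 5.68 against 39.2 ± 4.26 CPM. The differences of both genes were within 1 SD of the groups. Xbp1 is the transcription factor activated by IRE1 (chromosome 14, bases 80390629 to 80395713, plus strand). Its level was 150.4 ± 15.5 in exposed and 136 ± 17.6 CPM in control animals, a log2 difference of 0.14 (SE 0.06) with p = 0.0227 and an adjusted p = 0.915 in edgeR.

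All 10 genes, Dnajc3 by choice, had a log2 difference above 0 in this comparison, though those of Ddit3 (0.0007) and Atf4 (0.008) were close to it. The median over the 10, Dnajc3 included, was 0.10, against 0.001 over all 12415 genes. Dnajc3 was chosen by this comparison and several of the others correlate across animals, so nothing is read from this median. Before adjustment, 3 of the 9 genes other than Dnajc3 (Hspa5, Pdia4 and Xbp1) had p under 0.05, as did 677 of all genes (5.45%). These 3 genes correlate across animals and are not independent counts.

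In MAR_C3, LDHA/B+CRMP1+STIP1 animals did not differ detectably from controls in any of the 9 other genes. Of 12570 genes, 0 (0%) passed FDR < 0.1 in edgeR and 0 in DESeq2, with 706 at an unadjusted p under 0.05, none of them among the 10. Hspa5 was 358 ± 65.7 CPM in exposed (SD, n = 9) and 368 ± 70.1 CPM in control animals (SD, n = 12), with a log2 difference of −0.03 (SE 0.10). Pdia4 was 66.2 ± 11.8 and 65.9 ± 11.7 CPM. The median log2 difference over the 10 genes was 0.01, and 0 of them had litter means without overlap (0.461% of all genes did). The test of the difference between the 2 series in their exposure effect was passed by 14 of 12700 genes (0.11%) and by 0 of the 10. For Hspa5 the difference of effects was −0.23 (SE 0.11) and for Pdia4 −0.23 (SE 0.12), both with an adjusted p = 1.00 in edgeR.

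**Figure D3:**
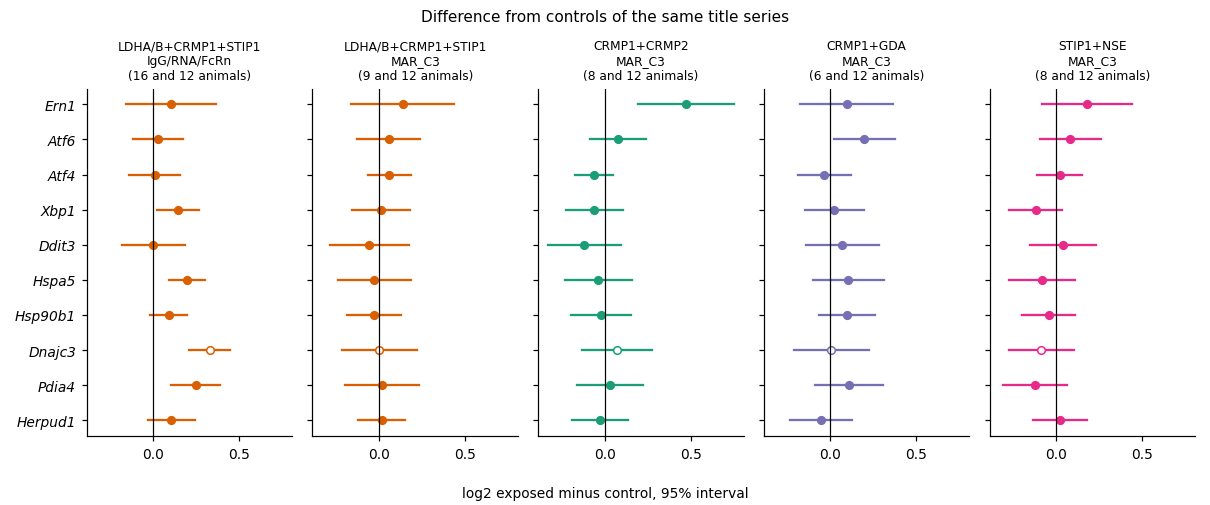
Log2 difference of each of the 10 genes from the controls of the same title series, with its 95% interval from edgeR, for 5 comparisons. Open points mark Dnajc3, which was chosen by these values. The widest step away from 0 outside Dnajc3 is that of Ern1 in CRMP1+CRMP2, at 0.47.

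Ern1 encodes the sensor IRE1, a kinase and endoribonuclease in the membrane of the endoplasmic reticulum (chromosome 10, bases 91330654 to 91391879, minus strand). It was the lowest and the most variable of the 10 genes, with 167 to 503 counts a library. Its level in CRMP1+CRMP2 ranged from 7.89 to 14.8 CPM with a median of 10.6, and in the MAR_C3 controls from 5.47 to 10.0015 CPM with a median of 8.29. The groups overlapped. The log2 difference was 0.47 (SE 0.13), with p = 0.00201 and an adjusted p = 0.108 in edgeR, where 127 of 12605 genes (1.01%) were called and 0 of the 10. With each litter left out in turn the adjusted p ran from 0.0188 (without 9_16) to 0.464 (without 9_6) and the log2 difference from 0.36 to 0.61, and only without 9_16 or control litter 9_10 (0.0437) did Ern1 pass. The adjusted p was 0.455 in limma voom with a random litter effect and 0.546 with counts summed per litter.

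Against all 24 controls with 1 surrogate variable, Ern1 rose in CRMP1+CRMP2 by 0.43 on the log2 scale (SE 0.13, adjusted p = 0.0546, edgeR), the only one of the 10 called where 1445 of 12691 genes (11.4%) were. The call was lost with the litter as a random effect (adjusted p = 0.194, limma voom), with counts summed per litter (0.392), without the 13 libraries with Tph1 or Hoxb7 above 1 CPM (0.117) and without litter 9_6 (0.415) or 9_11 (0.142). The log2 difference was 0.34 to 0.55 in these fits. In the same comparison 7 of 7 choroid plexus markers and 5 of 5 pineal markers were higher in CRMP1+CRMP2, with summed pineal levels of 3.16 to 248.8 CPM there and 2.69 to 6.64 CPM in the MAR_C3 controls. The part of this tissue content in the Ern1 value was not tested beyond leaving out the 13 libraries. PERK (Eif2ak3), another sensor, also rose, by 0.14 (SE 0.04, adjusted p = 0.0426, edgeR). That call too was lost with counts summed per litter, where 0 of 12363 genes passed in edgeR, with 1572 at an unadjusted p under 0.05.

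In the other exposures Ern1 was 8.67 ± 2.45 CPM in LDHA/B+CRMP1+STIP1 of MAR_C3 (SD, n = 9), 8.29 ± 0.675 in CRMP1+GDA (SD, n = 6) and 8.82 ± 1.61 in STIP1+NSE (SD, n = 8), against 7.83 ± 1.47 CPM in their controls (SD, n = 12). None of these differences exceeded 1 SD. In the IgG/RNA/FcRn series it was 10.04 ± 2.18 in exposed and 9.33 ± 2.80 CPM in control animals. For all exposed against all control animals the log2 difference was 0.17 (SE 0.08, adjusted p = 0.456), and 4 of 12477 genes (0.0321%) and 0 of the 10 passed there.

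Ern1 was also set against control litters with neighboring dam numbers. The MAR_C3 dams are numbered 9_1 to 9_25, and within each run of 5 numbers the groups recur in one order, ending with a control. The labels do not say what the numbers stand for, and this division was noticed after the values were seen. Where a run held a control litter, the Ern1 mean of the exposed litter was above that of the control litter in 12 of 12 pairs, by 1.00-fold to 1.90-fold with a median of 1.33-fold. The 12 pairs rest on 4 control litters, and among all 12477 genes 501 (4.02%) lay on one side in every pair. The 4 pairs of run 1 all rest on litter 9_5, which had the lowest Ern1 of all litters at 5.62 CPM, and the smallest ratio was that of 9_8 to 9_10 (8.87 and 8.85 CPM). The other 9 genes were split, with the exposed litter higher in 4 to 8 of the 12 pairs. With the run of 5 as a covariate, CRMP1+CRMP2 differed from controls in Ern1 by 0.82 (SE 0.10, adjusted p = 0.00012, edgeR), in a fit that called 3859 genes (30.6%). Run 4 held no control litter and run 5 no CRMP1+CRMP2 litter. Litters 9_16 (the lowest of CRMP1+CRMP2, 8.06 CPM) and 9_25 therefore gave no contrast between the groups. In runs 1 to 3 each group had 1 litter, so exposure and litter cannot be told apart within a run. Animals, not litters, were the replicates of this SE and p.

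ATF6, the sensor that is itself cut into a transcription factor, is encoded by Atf6 (chromosome 13, bases 82931590 to 83106345, minus strand). It did not pass the threshold in any exposure. Its largest difference from controls within MAR_C3 was in CRMP1+GDA, where it ranged from 24.7 to 29.1 CPM (median 26.5) against 20.4 to 29.9 CPM (median 23.04) in the controls. That log2 difference was 0.20 (SE 0.08), with p = 0.0301 and an adjusted p = 0.956, and the only gene called of 12538 (0.00798%) was not one of the 10. Against all 24 controls, 0 of 12641 genes (0%) were called in CRMP1+GDA by edgeR and 0 by DESeq2, with 462 at an unadjusted p under 0.05.

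The transcription factors ATF4 and CHOP are encoded by Atf4 (chromosome 7, bases 111804398 to 111806457, plus strand) and Ddit3 (chromosome 7, bases 63116380 to 63121203, plus strand). Atf4 was 163 ± 17.5 CPM in CRMP1+CRMP2 (SD, n = 8), 168 ± 27.2 in CRMP1+GDA (SD, n = 6), 174 ± 26.9 in STIP1+NSE (SD, n = 8) and 173 ± 10.3 in their controls (SD, n = 12). Ddit3 was 9.51 ± 1.54, 10.5 ± 1.00 and 10.5 ± 1.13 CPM in these exposures and 10.2 ± 1.52 CPM in the controls. Every one of these differences was within 1 SD of the controls. Ddit3, the member known for cell death under lasting stress, had log2 differences of −0.12 to 0.07 over the 5 exposures against controls of their own series, with SEs of 0.09 to 0.11.

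STIP1+NSE animals had the lowest means of Hspa5 (344 ± 24.5 CPM), Hsp90b1 (382 ± 26.02), Pdia4 (59.9 ± 6.44), Dnajc3 and Xbp1 (119.998 ± 9.58, SD, n = 8 each) of the 7 groups. The differences from MAR_C3 controls were −0.08 (SE 0.09) for Hspa5, −0.13 (SE 0.09) for Pdia4 and −0.12 (SE 0.07) for Xbp1 on the log2 scale, and none passed. There 0 of 12562 genes (0%) were called in edgeR and 0 in DESeq2, with 334 at an unadjusted p under 0.05. Against all controls, 6 of 12660 genes (0.0474%) and 0 of the 10 were called in STIP1+NSE. For LDHA/B+CRMP1+STIP1 against all controls the counts were 2 of 12700 (0.0157%) and 0 of the 10. Pdia4 differed there by 0.14 (SE 0.07, adjusted p = 0.643, edgeR). Dnajc3 differed by 0.18 (SE 0.06), a description only, since this fit holds the animals whose values chose it.

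Controls of the 2 series differed in 2 of the 10 genes, where 5218 of 12565 genes (41.5%) were called. Atf6 ranged from 20.4 to 29.9 CPM in the MAR_C3 controls (median 23.04) and from 24.6 to 37.7 CPM in the IgG/RNA/FcRn controls (median 28.2). Its log2 difference was −0.30 (SE 0.08, adjusted p = 0.00464, edgeR), and the 4 litter means of MAR_C3, from 21.02 to 26.7 CPM, all lay below the 3 of the other series, from 28.99 to 29.97 CPM. Litter means were separated in this way for 3129 genes (24.9%). Atf4 ranged from 153 to 188 CPM in the MAR_C3 controls (median 174) and from 149.8 to 249.2 CPM in the others (median 193), with a log2 difference of −0.20 (SE 0.07, adjusted p = 0.0308). The Atf4 call was lost without control litter RNA4 (−0.09, adjusted p = 0.268) or 9_25 (−0.14, adjusted p = 0.248), and both calls were lost with counts summed per litter.

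A share of 2 in 10 is below that of all genes. Hspa5, Hsp90b1, Dnajc3 and Pdia4 had log2 differences of −0.01 to 0.05 between the controls of the 2 series. All 7 choroid plexus markers, with a median log2 difference of 3.26, and 3 of 4 thalamus markers were higher in the MAR_C3 controls, and 5 of 7 neuronal markers were lower. Tissue content, processing and sequencing differ together between the series and cannot be told apart, and their part in the values of Atf6 and Atf4 was not tested.

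Litter was a main axis along which these genes varied. Within groups, the litter accounted for 41.2% (Atf6) to 81.0% (Pdia4) of the variance of the log2 level over the 71 animals, with a median of 63.2% for the 10 genes, against a median of 46.9% over all expressed genes and 31.25% expected from the number of litters alone. It exceeded the all-gene median in 9 of the 10. Pdia4 lay at percentile 99.9 of 12477 genes, Hspa5 (77.2%) at 99.3, Hsp90b1 (70.6%) at 95.8 and Herpud1 (69.3%) at 94.8. Dnajc3 was divided between the series: its litter share was 83.9% in MAR_C3 and 9.44% in the IgG/RNA/FcRn series, where littermates differed from each other as much as animals of different litters of a group did. The values of the IgG/RNA/FcRn animals chose Dnajc3, so its share there is a description only. Littermates share a dam and an exposure, and tests that take animals as replicates leave this out. Across the 71 animals, which share litters, and as deviations from group means on the log2 scale, the level of Herpud1 (r = 0.49) and Atf4 (r = 0.41) went with the total count of the library and that of Ern1 against it (Pearson r = -0.38), and the part of depth in the results was not tested.

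In MAR_C3 the litters of dams 9_1 to 9_5 and of dams 9_6 to 9_10 each held all 5 groups. Atf4 litter means were 182 to 197 CPM in the first 5 litters and 139 to 170 CPM in the next 5, Herpud1 means were 37.7 to 42.4 against 29.6 to 33.9 CPM, and Xbp1 means were 124.2 to 150.1 against 108 to 123 CPM. These 3 genes had no overlap between the runs, which was true of 2897 of 12477 genes (23.2%). The other 7 overlapped, Hspa5 with 320.2 to 435 against 320.8 to 392 CPM. The study assigned litters born within days of each other to cohorts, and whether these runs are such cohorts is not given in the labels. Thalamus marker sums had a median of 244 CPM in the first run and 562 CPM in the second, and choroid plexus sums 1901 and 579 CPM, and their part in these values was not tested.

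**Figure D4:**
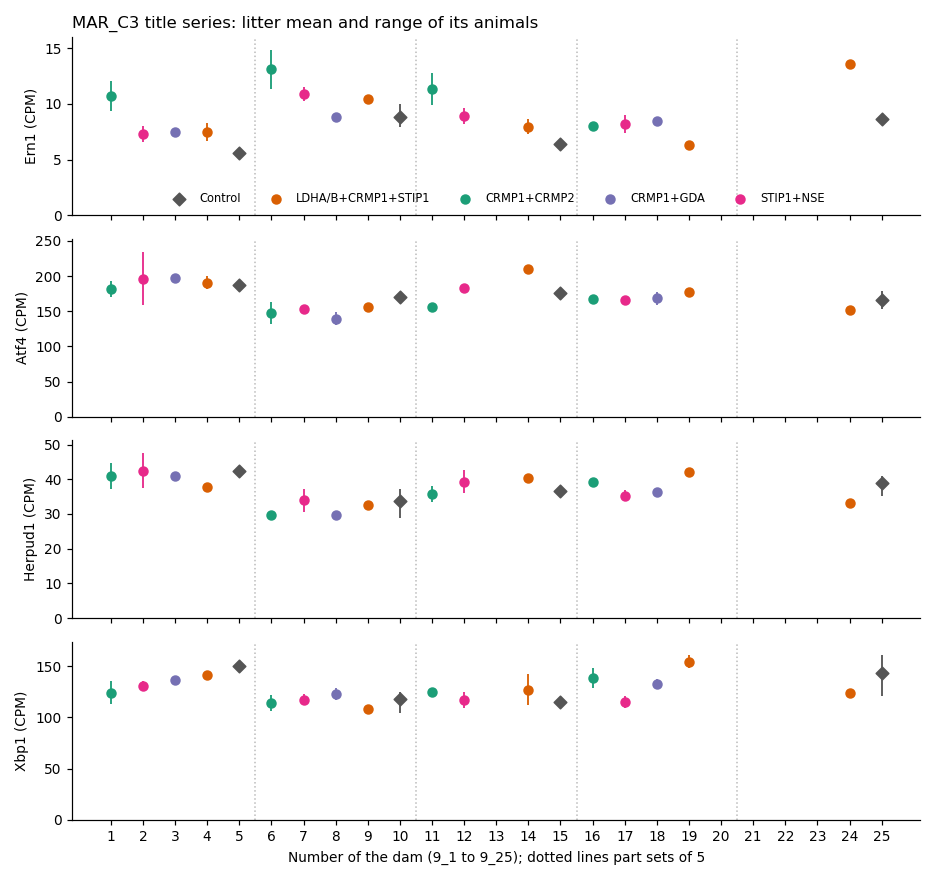
Litter means of Ern1, Atf4, Herpud1 and Xbp1 in CPM by the number of the MAR_C3 dam, with lines over the range of the animals and diamonds for control litters. Atf4, Herpud1 and Xbp1 are higher in litters 1 to 5 than in litters 6 to 10, and in Ern1 each exposed litter lies at or above the control of its run where one is shown.

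Animals that were high in one lumenal chaperone were high in the others. After the mean of each group within its series was removed, Pearson's r over the 71 animals was 0.83 between Hspa5 and Hsp90b1 (Spearman's rho 0.84), 0.83 between Hspa5 and Pdia4 (rho 0.82) and 0.77 between Hsp90b1 and Pdia4 (rho 0.78). Xbp1 went with them, at 0.64 to 0.69, and Atf4 went with Herpud1 at 0.71 (rho 0.72) and not with the chaperones (−0.19 to −0.11). Within litters the correlation of Hspa5 with Hsp90b1 was 0.75 and that of Atf4 with Herpud1 0.60. These are correlations between genes measured in the same libraries, which share depth and tissue content, and they are given as a description without a test. Ern1 had r between −0.36 and 0.34 with the other 9 genes and Ddit3 between −0.20 and 0.26.

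**Figure D5:**
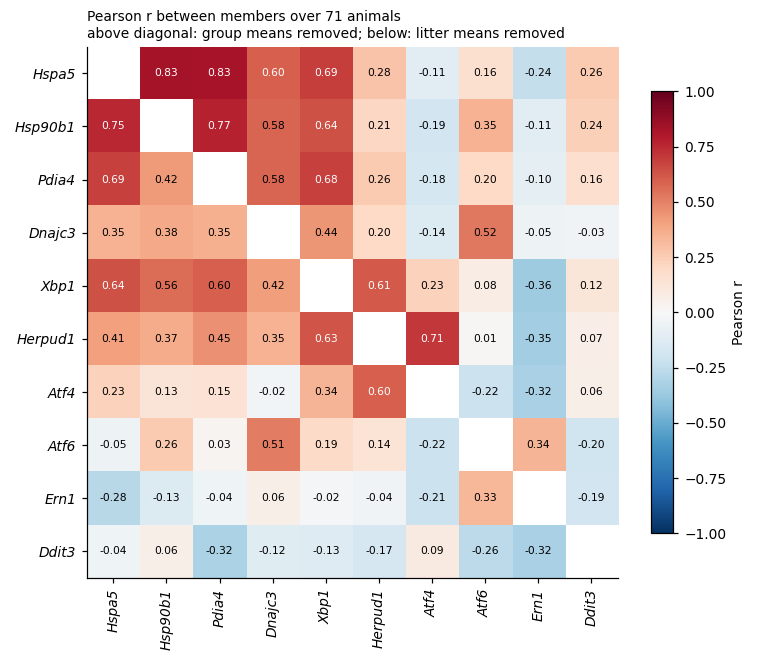
Pearson's r between the 10 genes over 71 animals on log2 CPM, above the diagonal after removal of group means within the title series and below it after removal of litter means. Hspa5, Hsp90b1, Pdia4 and Xbp1 form the block of highest values, 0.64 to 0.83 above the diagonal.

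Dnajc3 went more closely with the chaperones in MAR_C3 and more closely with Atf6 in the IgG/RNA/FcRn series. Its r with Hspa5 was 0.60 over all animals, 0.77 in MAR_C3 and 0.11 in the IgG/RNA/FcRn series. Its r with Atf6 was 0.52 over all animals, 0.43 in MAR_C3 and 0.72 in the IgG/RNA/FcRn series. Dnajc3 was chosen by its values in these series, so its correlations by series are a description without a test. Within litters the r of Dnajc3 was 0.35 with Hspa5, 0.35 with Pdia4, 0.38 with Hsp90b1 and 0.51 with Atf6. Among 12476 expressed genes, the 5 most like Dnajc3 over the 71 animals were Pak2 (r = 0.66), Adipor2 (0.62), Hspa5 (0.60), Pdia4 (0.58) and Hsp90b1 (0.58). Atf6 ranked 16, Xbp1 81, Herpud1 1732, Ddit3 7283, Ern1 7654 and Atf4 9911. Of the first 20 genes, 5 (25%) belonged to the lists of the pathway, namely Hspa5, Pdia4, Hsp90b1 and Atf6 of the 10 and Spcs3 of the signal peptidase. The share was 12% of the first 50 and 9% of the first 100, while 0.713% of all ranked genes belong. The median r over all genes was 0.003.

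The sexes did not differ detectably in any of the 10 genes, Dnajc3 included, a comparison that played no part in choosing it. Dnajc3 was 19.7 ± 2.88 CPM in 35 males and 19.7 ± 3.20 CPM in 36 females, with a log2 difference of 0.00 (SE 0.04, adjusted p = 0.999, edgeR). The smallest p among the 10 was that of Ddit3, at 10.1 ± 1.44 CPM in males and 9.28 ± 1.59 CPM in females, a log2 difference of 0.13 (SE 0.05, p = 0.0174, adjusted p = 0.991). In this comparison 8 of 12477 genes (0.0641%) were called.

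The rest of the pathway was followed in 7 lists that hold 84 further genes in the table: sensors and kinases, transcription factors, chaperones, disulfide isomerases, degradation, ATF4 and CHOP targets, and the translocon with signal peptide processing. Of these, 80 or 81 were expressed enough to be tested in each comparison. None of them passed in LDHA/B+CRMP1+STIP1, CRMP1+GDA or STIP1+NSE against controls of either kind, nor between the sexes. Against the IgG/RNA/FcRn controls, 45 of 80 lay above 0 and 35 below in LDHA/B+CRMP1+STIP1 of that series, with a median log2 difference of 0.01. With the 10 genes counted in their lists, the ER chaperone list had 6 of 13 genes at an unadjusted p under 0.05 there (edgeR), among them Hspa5. Dnajc3 is also among the 6, by choice, since this comparison chose it. Chaperones correlate across animals (Hspa5 with Hsp90b1, r = 0.83), so the 6 are not independent counts and nothing is read from their share. The other 6 lists had 1 or 2 such genes each, of 7 to 19 tested, and all genes had 5.45%.

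In CRMP1+CRMP2 against all controls, 1 of the 80 rose, Eif2ak3 (given above), and 5 fell, which is 7.5% against 11.4% of all genes. All 6 calls were lost with counts summed per litter, and a random litter effect in limma voom left 33 of 12691 genes called (0.26%). Phgdh, the first enzyme of serine synthesis and a target of ATF4, fell by 0.25 (SE 0.09, adjusted p = 0.0832), and Sec11c of the signal peptidase by 0.20 (SE 0.07, adjusted p = 0.0747), both from edgeR. Erp29 fell by 0.14, Ube2j1, an enzyme that tags misfolded proteins, by 0.15, and the seryl-tRNA synthetase Sars1 by 0.12. Of the cytosolic heat shock genes, which are outside the pathway, Hsp90aa1 fell by 0.16 and Hsp90ab1 by 0.10. Against MAR_C3 controls alone, 0 of 80 passed in CRMP1+CRMP2 in edgeR.

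Between the controls of the 2 series, 15 of the 80 further genes were higher in MAR_C3 and 19 lower, 42.5% against 41.5% of all genes. The ATF4 and CHOP targets had 7 lower and 2 higher of 19 tested. Asns, which makes asparagine, differed by −0.49 (SE 0.08, 55.1 against 77.4 CPM, adjusted p = 5.57e-05) and Vldlr by −0.31 (SE 0.05). The sensors and kinases had 4 lower of 7, Atf6 with Atf6b (−0.14) and Eif2ak3 (−0.13) among them. Of the degradation genes, Derl1, a channel component for misfolded proteins, was higher by 0.37 (SE 0.05, 123 against 95.5 CPM, adjusted p = 3.28e-06). Of the chaperone list, Sil1, the exchange factor of BiP, was higher by 0.43 (SE 0.10) and Dnajb9 by 0.17 (SE 0.07), while the lectin chaperone Canx was lower by −0.11 (SE 0.04). Adjusted p-values are from edgeR, and the limits of this comparison given above for Atf6 and Atf4 hold for these genes too.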

How the data were processed

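The deposited table holds whole-number counts per gene for 71 libraries, which the authors made by aligning paired reads of 150 bases to rn7 with STAR 2.5.4b and counting with featureCounts, whose version and handling of shared or antisense reads are not given in the sources used here. The exon lengths in bases that the deposited table gives per gene were used for RPKM. Of counts from 1 to 20, 74.6% were even, and the reason was not tested. No 2 columns were identical. 0 columns were left without a sample.

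Comparisons used edgeR 4.0.16 in R 4.3.3 (TMM, robust quasi-likelihood test, FDR < 0.1 by Benjamini-Hochberg over all genes tested). Genes had to reach 1 CPM in 8 or more samples for fits over all 71, and to exceed it in 2 or more for the others. Fits within or between title series had sex as a term, and those against all controls had 1 surrogate variable (sva 3.50.0), as in the study's models. Animals were the replicates. Log2 CPM for correlations and litter shares used a prior count of 2. Alternatives used DESeq2 1.42.0 and limma 3.58.1 voom. Steps across all genes were tested on simulated counts without a litter effect, so that test says nothing of how the fits behave with littermates. Promoters were searched with Python 3.11.15. Intervals are 95%.

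The 10 genes and the gene lists were chosen with earlier results of these data known. All 10 are named in every group, with up to 3 called genes per list and comparison and the 5 genes most like Dnajc3. The division by dam number was chosen after seeing the data.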

Additional observations from a re-analysis of the deposited data

Results flagged for a closer look

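In groups of 6 to 9 animals, each of the 10 genes was examined for a single animal far from the rest of its group, by the gap to its nearest neighbor as a share of the group's range (Dixon's test at 95%). Of 40 combinations of gene and group, 3 stood out. For independent values chance alone gives about 1 in 20. Littermates and correlated genes are not independent, so that rate is no measure for these 3. In CRMP1+CRMP2, 1 animal of litter 9_11 had Dnajc3 at 25.4 CPM, where the next animal had 20.3 and the lowest 17.5 CPM. In STIP1+NSE, 1 animal of litter 9_2 had Atf4 at 234.3 CPM, where the next had 185.7 and the lowest 152.5 CPM. In STIP1+NSE, 1 animal of litter 9_17 had Hspa5 at 289.2 CPM, where the next had 336.2 and the highest 364.2 CPM. Each of the 3 animals has a littermate in its group that does not stand out. No explanation was tested.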

How the results depend on the processing

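Littermates share a dam, animals were taken as replicates, and when the litter entered as a random effect (by limma voom) or counts were summed by litter most calls were lost. Of the 10 genes, LDHA/B+CRMP1+STIP1 in the IgG/RNA/FcRn series had 1 called (Dnajc3, which these values chose, so that its calls are a description), and 0 in both litter fits (log2 difference 0.32 in each) and 0 to 3 when each litter was left out (0 without IgG2, IgG3 or RNA1, 3 without IgG1). The controls of the 2 series had 2 called, 1 with the random effect, 0 with summed counts and 1 to 4 with a litter left out (4 without IgG1). CRMP1+CRMP2 against all controls had 1 called, 0 in both litter fits and without the 13 libraries with Tph1 or Hoxb7 above 1 CPM, and 0 to 1 with a litter left out. CRMP1+CRMP2 against MAR_C3 controls had 0 called, 1 with the run of 5 dam numbers as a covariate (added after seeing the data) and 0 to 1 with a litter left out. LDHA/B+CRMP1+STIP1 against all controls had 0 called, 1 without the 13 libraries and 0 to 1 with a litter left out. The gene called was Dnajc3 each time. These fits hold the animals whose values chose it, so its calls here too are a description. The other comparisons kept 0 under every alternative. Of 1760 values of single genes under alternatives, 0 called values changed sign, 15 lost the threshold and 12 passed it. Among values not called, 170 had a sign other than that of the value reported, and 90 moved by more than 1 SE. Apart from the construction of these fits (fewer samples, litters as units), the cause was not tested.

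Over all genes, the counts called moved by more than 1.5 times as follows. In LDHA/B+CRMP1+STIP1 of the IgG/RNA/FcRn series, 2 genes became 7 with DESeq2, 0 with either litter fit and 0 to 20 with a litter left out. In MAR_C3, 0 became 0 to 2 with a litter left out. For the difference of effects, 14 became 6 with DESeq2, 0 with either litter fit and without the 13 libraries, and 0 to 16 with a litter left out. In CRMP1+CRMP2 against MAR_C3 controls, 127 became 827 with DESeq2, 63 with no filter, 0 with either litter fit and without the 13 libraries, 3859 with the dam number covariate, and 0 (without 9_11) to 2154 (without 9_10). In CRMP1+GDA, 1 became 10 with DESeq2, 5 without the sex term or with the dam number covariate, 0 with no filter, either litter fit or without the 13 libraries, and 0 to 8 with a litter left out. In STIP1+NSE, 0 became 1 with the dam number covariate and 0 to 1 with a litter left out. Between controls, 5218 became 2833 and 1895 in the litter fits. For all exposed animals, 4 became 1 with RLE size factors, 16 with DESeq2, 13 with no filter and 0 with title series and sex as terms, in both litter fits and without the 13 libraries. Against all controls, CRMP1+CRMP2 went from 1445 to 491 with title series and sex as terms, 33 and 0 in the litter fits, 611 without the 13 libraries and 41 (without 9_6) to 2889 (without 9_16). LDHA/B+CRMP1+STIP1 went from 2 to 15 with DESeq2, 7 with no filter, 0 in the litter fits, 63 without the 13 libraries and 2 to 44 with a litter left out. CRMP1+GDA went from 0 to 5 with title series and sex as terms and 1 to 4 with a litter left out. STIP1+NSE went from 6 to 3 with DESeq2, 0 with title series and sex as terms, in the litter fits and without the 13 libraries, and 1 to 13 with a litter left out.

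No paired analysis was possible because the replicate numbers of the groups only count animals and pair none across groups. The runs of 5 dam numbers are a division chosen after the values were seen, and the labels do not give them as a pairing. Each of the 10 genes had 152 or more counts in every library, and Ddit3 and Ern1, the lowest in counts, had the widest intervals on average.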
